A study of Mus musculus with 12 samples.

Results

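The genes described here are 38 interferon-stimulated genes, chosen by name with earlier results of these data known. These genes were followed across lumbar spinal cord RNA of 12 mice. They were found through the symbols that GENCODE M21 gives to the mouse gene identifiers of the tables. All 38 were among the 33906 identifiers, and all 38 passed the filter on low values, which left 18118 genes for testing. Group P held ALS model mice fed phosphate-buffered saline (mice P66, P67 and P74). Group C held ALS model mice given manganese-doped carbon dots, a nanozyme with superoxide dismutase-like activity by the series title (mice C79, C84 and C85). Group E (mice E75, E77 and E90) was taken to be the ALS model mice given edaravone, a radical scavenger used as an ALS drug. Edaravone has the code D in the series text, which lists E among the groups and no D, so this assignment was made by elimination. The wild-type mice H1, H2 and H4 were healthy and formed group H, the only group without the ALS model background. The sources used here give no strain or transgene of the model, no age or sex of the mice and no dose. Each number stands for 1 mouse by the series text, so the p-values measure the spread between mice within groups. For each gene the fit used the same estimate of this spread, drawn from all groups together, in every comparison.

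Type I interferons are secreted proteins that cells release when they sense viral or misplaced self nucleic acids. They bind the receptor chains Ifnar1 and Ifnar2, and the kinases Jak1 and Tyk2 then activate a complex that contains Stat2 and Irf9. This complex binds the interferon-stimulated response element (ISRE) of target genes. Interferon gamma acts at gamma-activated sites (GAS), and many of the genes below answer to both. In the central nervous system, microglia, astrocytes, neurons and endothelium can all express such genes.

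RefSeq promoter windows on GRCm38.p6, from 250 bases before to 50 bases after a start site, were found for 30 of the 38 genes. They were searched on both strands for the ISRE core GAAANNGAAA and the GAS core TTCNNNGAA, where N is any base. The ISRE core was present for 19 of the 30 genes (63.3%), against 3.99% of 27025 genes with windows of the same length in RefSeq, where a gene was counted if any of its windows held the core. The GAS core was present for 9 of the 30 genes (30%), against 9.55% of these genes. A match is a run of letters and not a measured site. The windows of 7 genes are printed to show how the ISRE core is placed, with bases of ISRE cores in capitals and each window read along the gene's own strand. Positions below are those of the first base of a match, with the start site as 0.
Ifitm3, chr7:141010695-141010994, minus strand: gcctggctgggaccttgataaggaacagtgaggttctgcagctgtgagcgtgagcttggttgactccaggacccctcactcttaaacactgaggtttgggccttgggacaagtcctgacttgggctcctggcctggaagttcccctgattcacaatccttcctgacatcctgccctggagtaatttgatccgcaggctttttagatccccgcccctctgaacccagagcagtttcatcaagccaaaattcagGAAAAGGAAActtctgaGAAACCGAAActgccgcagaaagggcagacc
Bst2, chr8:71537423-71537722, minus strand: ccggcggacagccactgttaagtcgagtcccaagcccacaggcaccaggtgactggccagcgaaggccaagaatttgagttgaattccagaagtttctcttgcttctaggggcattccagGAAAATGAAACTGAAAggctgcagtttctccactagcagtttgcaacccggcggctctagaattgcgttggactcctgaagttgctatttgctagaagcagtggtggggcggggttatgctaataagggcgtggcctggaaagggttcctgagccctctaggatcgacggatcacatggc
Gbp2, chr3:142620413-142620712, plus strand: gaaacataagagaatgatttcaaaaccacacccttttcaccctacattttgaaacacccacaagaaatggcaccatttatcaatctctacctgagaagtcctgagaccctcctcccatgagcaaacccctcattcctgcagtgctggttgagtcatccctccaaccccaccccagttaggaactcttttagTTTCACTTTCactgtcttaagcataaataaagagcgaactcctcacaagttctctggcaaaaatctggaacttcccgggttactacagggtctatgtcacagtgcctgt
Igtp, chr11:58199306-58199605, plus strand: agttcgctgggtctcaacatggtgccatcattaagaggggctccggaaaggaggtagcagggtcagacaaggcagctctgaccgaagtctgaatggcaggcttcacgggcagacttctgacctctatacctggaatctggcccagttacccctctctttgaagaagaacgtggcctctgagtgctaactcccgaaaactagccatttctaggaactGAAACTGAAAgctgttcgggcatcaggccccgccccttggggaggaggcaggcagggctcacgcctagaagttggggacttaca
Ifit3, chr19:34583279-34583578, plus strand: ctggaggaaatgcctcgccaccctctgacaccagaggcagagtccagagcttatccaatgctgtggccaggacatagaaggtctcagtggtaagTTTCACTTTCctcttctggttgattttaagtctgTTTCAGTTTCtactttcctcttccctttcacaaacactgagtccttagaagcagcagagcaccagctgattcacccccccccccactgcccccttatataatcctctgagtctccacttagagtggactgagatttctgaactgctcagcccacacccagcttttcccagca
Isg15, chr4:156200769-156201068, minus strand: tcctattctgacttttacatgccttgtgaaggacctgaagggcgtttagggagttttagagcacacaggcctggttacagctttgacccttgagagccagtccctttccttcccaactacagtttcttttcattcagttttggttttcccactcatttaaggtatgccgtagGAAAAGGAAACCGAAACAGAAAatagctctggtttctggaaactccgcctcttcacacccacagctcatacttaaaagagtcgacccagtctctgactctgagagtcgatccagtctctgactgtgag
Rsad2, chr12:26456403-26456702, minus strand: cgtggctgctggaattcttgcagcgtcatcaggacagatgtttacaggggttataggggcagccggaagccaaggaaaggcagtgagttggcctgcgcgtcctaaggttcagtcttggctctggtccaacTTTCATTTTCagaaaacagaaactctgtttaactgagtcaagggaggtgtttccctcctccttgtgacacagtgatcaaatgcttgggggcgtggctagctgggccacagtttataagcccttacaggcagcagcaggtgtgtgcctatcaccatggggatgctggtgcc

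Ifitm3, Bst2, Gbp2 and Igtp are among the genes that were higher in all 3 ALS model groups, and their cores lay at different distances from the start. Ifitm3 held cores at 2 and 19, after the start site, and Bst2 held overlapping cores at -130 and -124. Gbp2 and Igtp held 1 core each, at -59 and at -34. Ifit3 held cores at -156 and -122, and Isg15 held a run of overlapping cores at -78, -72 and -66. Rsad2 held a core at -120 and is shown because its level in the ALS model groups overlapped that in healthy cord. The GAS core of Bst2 lay at -136 and shared bases with its first ISRE core.

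**Figure D1:**
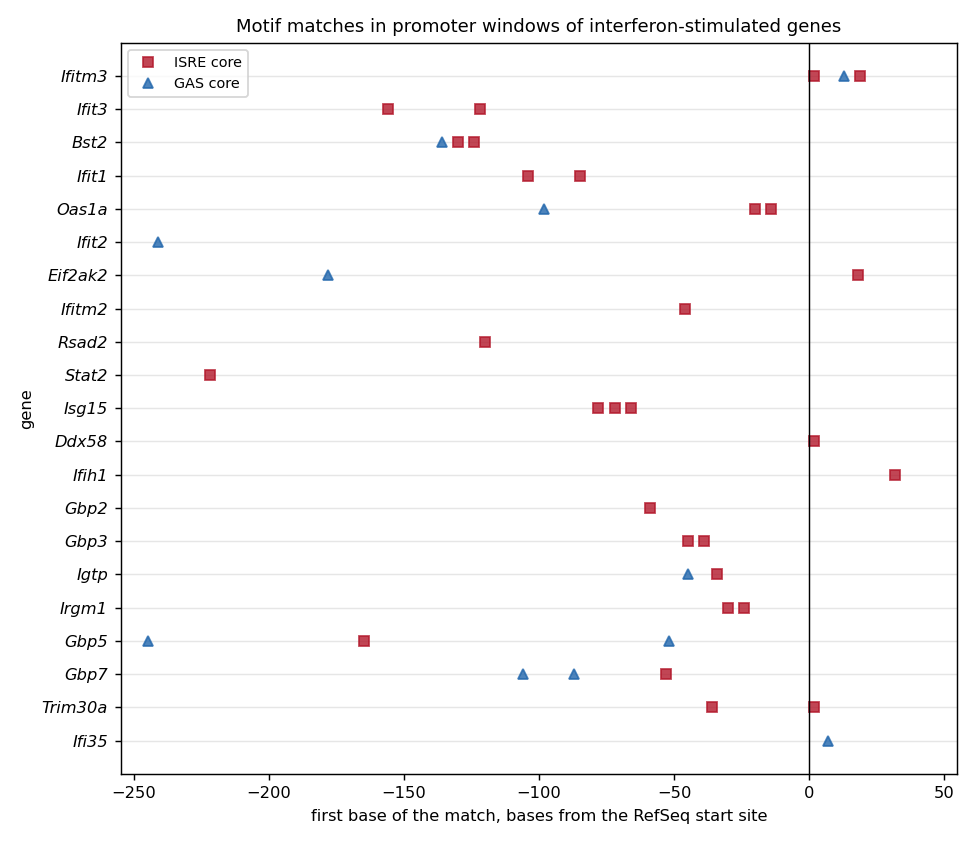
Position of each ISRE core (squares) and GAS core (triangles) in the promoter windows of the listed genes, in bases from the RefSeq start site (horizontal axis), with 1 row per gene that held a match. All squares but those of Stat2 and Gbp5 begin at -156 or nearer to the start site, and those of Ifitm3, Eif2ak2, Ddx58, Ifih1 and 1 of Trim30a lie after it.

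With all libraries, the share of the listed genes that were higher in ALS model cord than in healthy cord exceeded the share over all tested genes in each ALS model group. In P and in C this excess at an adjusted p under 0.05 was lost without 1 mouse each. Without P66, 2.63% of the listed genes and 4.44% of all tested genes rose in P. Without C85, 2.63% of the listed genes and 3.10% of all tested genes rose in C. The median log2 fold change of the listed genes was still 0.76 in P without P66 and 0.53 in C without C85. Over all tested genes it was 0.07 in both of these fits. In P against H, 20 of the 38 genes rose (52.6%) and none fell, where 12.2% of all tested genes rose and 3.26% fell. In C against H, 6 of 38 rose (15.8%) and none fell, where 7.25% of all tested genes rose and 1.06% fell. In E against H, 23 of 38 rose (60.5%) and none fell, where 11.1% of all tested genes rose and 2.15% fell. The mean of the 3 ALS model groups was higher than H for 26 of 38 (68.4%) and lower for none, where 16.4% of all tested genes were higher and 4.19% lower. A gene was taken to have risen or fallen at an adjusted p under 0.05 from limma, fitted to log2(FPKM + 1) of all 18118 genes with Benjamini-Hochberg adjustment. FPKM is a level per kilobase of exon scaled to the reads of a library. In tissue RNA, fewer cells of a type and less RNA per cell cannot be told apart.

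The median log2 fold change over the 38 genes was 0.92 in P against H, 0.66 in C against H and 1.17 in E against H. Over all tested genes the median was 0.07 in P, 0.07 in C and 0.08 in E against H. With a pseudocount of 0.1 in place of 1, which compresses the changes of low genes less, the medians of the 38 genes were 1.81, 1.42 and 1.98 in the same order. In P against H, 34 of the 38 genes had every P library above every H library, as had 26.4% of all tested genes. For C against H this held for 36 of 38 genes and 22.7% of all tested genes, and for E against H for 34 of 38 genes and 24.9%. All 9 ALS model libraries lay above all 3 healthy libraries for 33 of 38 genes, as in 14.1% of all tested genes. These comparisons share the H libraries, so their counts are not separate evidence. With median-ratio scaling in place of the deposited scaling, 53.2% of the genes called in P against H were higher, against 78.9% with the deposited scaling. The same shares were 67% and 87.2% in C against H, 58.4% and 83.7% in E against H, and 53.2% and 79.6% for the mean of the ALS model groups. No listed gene was called lower than in H under either scaling.

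**Figure D2:**
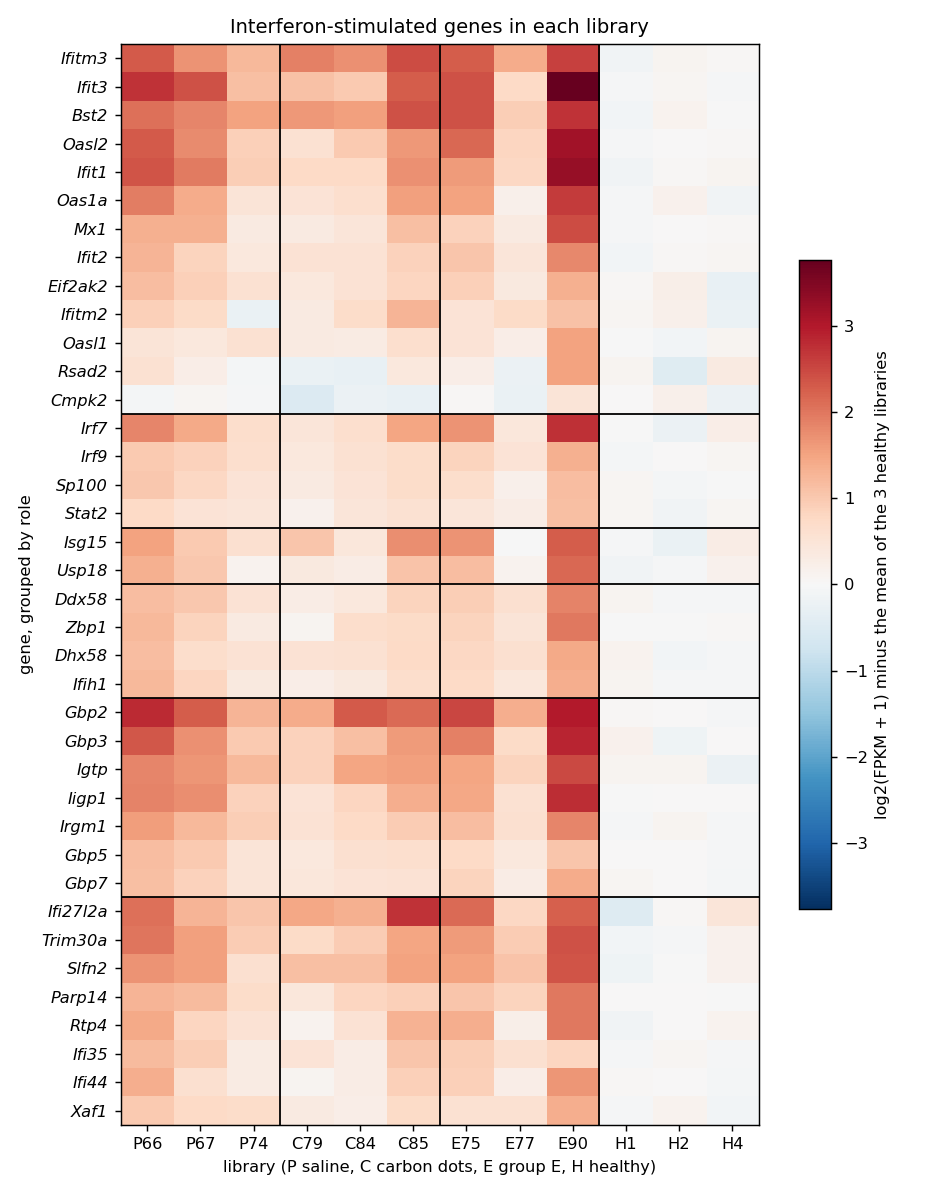
Log2(FPKM + 1) of each of the 38 genes (rows, grouped by role) in each of the 12 libraries (columns), minus the mean of the 3 healthy libraries; red is higher and blue is lower. Nearly all rows are red in the 9 ALS model columns, E90 is the darkest column, and Cmpk2 and Rsad2 are the palest rows.

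**Figure D3:**
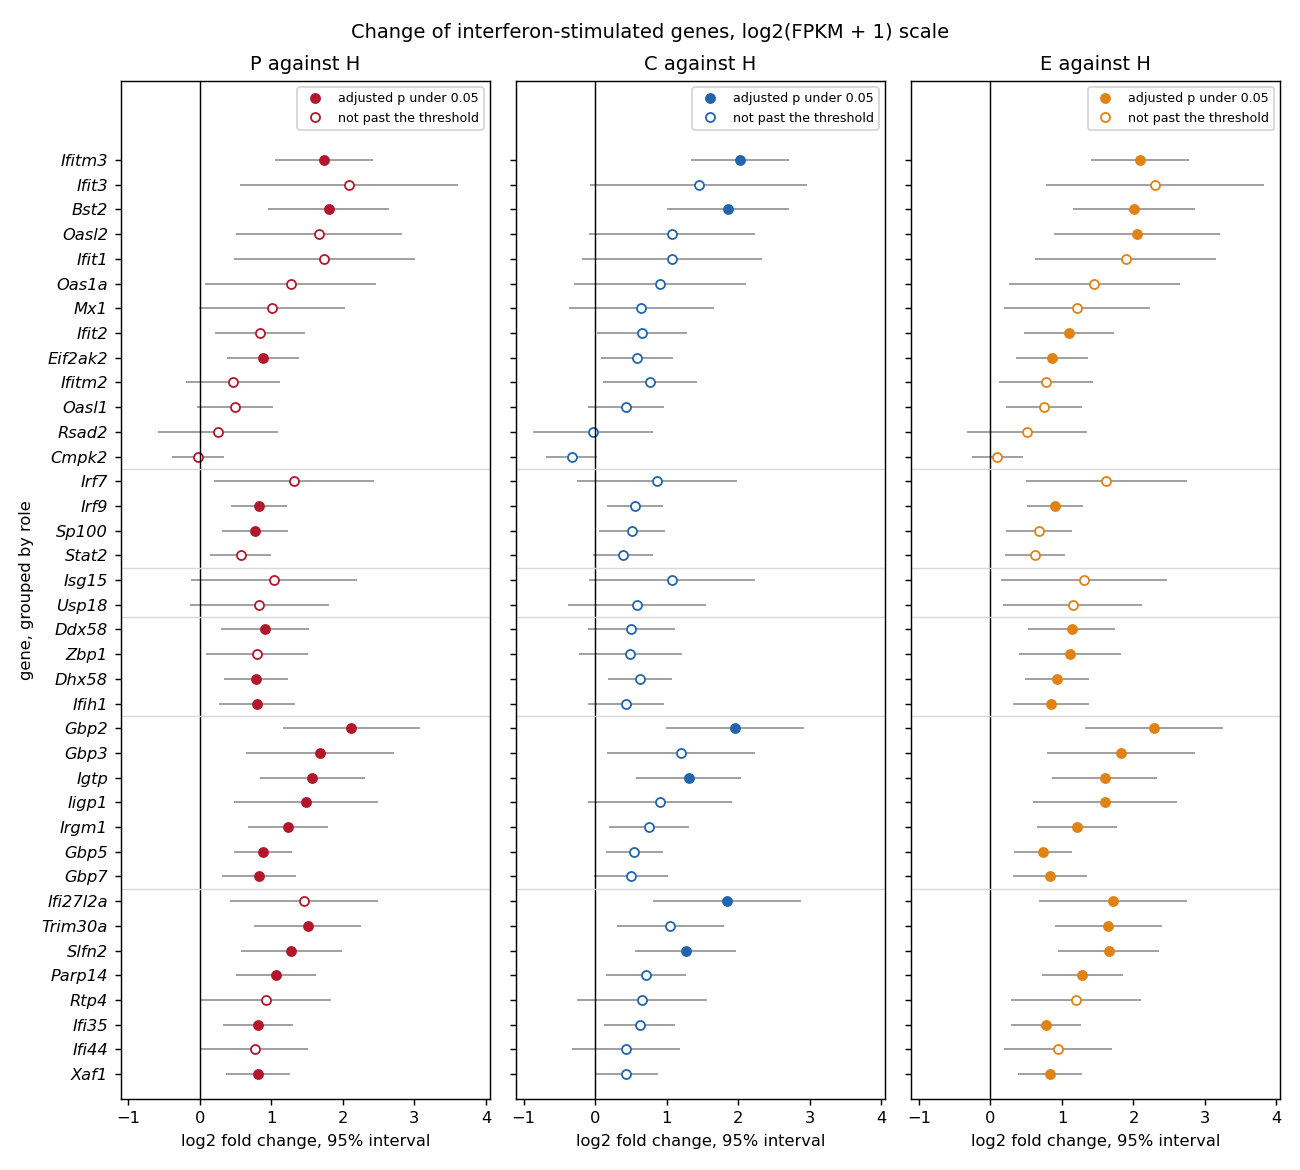
Log2 fold change of each gene on the log2(FPKM + 1) scale with its 95% confidence interval (horizontal axis) for P, C and E against H (3 mice per group). Filled points passed the threshold: 20 genes in P, 6 in C and 23 in E.

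These counts depended on single mice. In P against H, 1 gene, Ifitm3, remained without P66 and 7 without P67, and 10, 8 and 10 remained without H1, H2 and H4. In C against H, 1 gene remained without C85 (Ifitm3) and 2 without C84, and 3 and 2 without H1 and H2. In E against H, 10 genes passed without E90, 12 without E75, and 15, 10 and 12 without H1, H2 and H4. For the mean of the ALS model groups, 16, 13 and 15 passed without H1, H2 and H4. Ifitm3 passed in each of the 12 alternative settings in P against H, in C against H and in E against H. In E against H, Bst2, Gbp2, Igtp, Irf9, Irgm1, Parp14, Slfn2 and Trim30a also passed in all 12. For the mean of the ALS model groups, 12 of the 26 calls held in all 17 settings, those 9 genes with Dhx58, Gbp5 and Xaf1. Every other call against H of a single group was lost in at least 1 setting. Besides the fits without P66 and without C85, the share of listed genes that rose was below that of all tested genes in C against H with limma-voom on recovered reads (7.89% of the listed genes and 8.09% of all tested genes).

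The antiviral effectors, 13 of the 38 genes, block virus entry, translation or release. Of these, 3 rose in P against H, 2 in C against H and 5 in E against H. Values in single libraries follow the order of the mouse numbers given above, and gene coordinates are those of GENCODE M21 on GRCm38. Ifitm3 (ENSMUSG00000025492, chr7:141009586-141010770, minus strand) encodes a membrane protein that hinders virus entry and had the highest mean level per kilobase of the 38 genes over the 12 libraries. Ifitm3 was at 59.9, 38.5 and 27.8 FPKM in P, 44.5, 39.7 and 66.9 in C, 59.2, 31.6 and 72 in E, and 10.2, 12.1 and 11.7 in H. Its lowest ALS model library, P74, was above the highest healthy library. The log2 fold change was 1.74 ± 0.31 in P against H (adjusted p = 0.00531), 2.02 ± 0.31 in C against H (adjusted p = 0.00337) and 2.09 ± 0.31 in E against H (adjusted p = 0.00206), each ± its standard error with 3 mice per group. Bst2 (ENSMUSG00000046718, chr8:71534255-71537456, minus strand), the tetherin that holds budding virions at the cell surface, was at 14.9, 12.6 and 9.83 FPKM in P, 10.8, 10.2 and 18.9 in C, 19, 6.23 and 24.3 in E, and 2.57, 3.14 and 2.75 in H. It rose in all 3 groups, by 1.80 ± 0.39 in P (adjusted p = 0.0128), 1.85 ± 0.39 in C (adjusted p = 0.016) and 2.01 ± 0.39 in E (adjusted p = 0.00752) on the log2 scale.

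Eif2ak2, the kinase PKR that halts translation on double-stranded RNA, was at 6.38, 5.03 and 3.91 FPKM in P, 3.32, 3.74 and 4.73 in C, 5.06, 3.19 and 7.25 in E, and 2.37, 2.84 and 1.71 in H. It rose in P (0.88 ± 0.23, adjusted p = 0.0272) and E (0.86 ± 0.23, adjusted p = 0.0309) and not past the threshold in C (0.58 ± 0.23, adjusted p = 0.14). The Ifit genes encode tetratricopeptide proteins that bind foreign RNA and hinder its translation. Ifit2 was at 10.5, 7.38 and 5.24 FPKM in P, 5.93, 5.81 and 7.67 in C, 8.8, 5.43 and 15.4 in E, and 3.35, 3.88 and 3.95 in H. It rose in E alone of the single groups (1.10 ± 0.29, adjusted p = 0.0279), with 0.84 ± 0.29 in P and 0.65 ± 0.29 in C. That E differed from P or C was not shown, since no listed gene passed between ALS model groups.

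Ifit3 (ENSMUSG00000074896, chr19:34583531-34588731, plus strand) had the widest range in FPKM among these genes, at 35.2, 28.1 and 11 FPKM in P, 10.7, 9.79 and 25.4 in C, 27.8, 8.2 and 73.4 in E, and 4.37, 4.75 and 4.34 in H. Its 9 ALS model libraries lay above the 3 healthy ones, yet within E the highest library was 8.95 times the lowest. A log2 fold change of 2.09 ± 0.68 in P against H had an adjusted p of 0.0646 and one of 2.30 ± 0.68 in E against H had 0.0519. Ifit1 was at 9.58, 6.94 and 2.9 FPKM in P, 2.5, 2.45 and 5.81 in C, 5.31, 2.51 and 19.2 in E, and 0.897, 1.11 and 1.2 in H. Both passed for the mean of the 3 ALS model groups against H, Ifit3 at 1.94 ± 0.56 (adjusted p = 0.0345) and Ifit1 at 1.57 ± 0.47 (adjusted p = 0.0381). Oasl2, an oligoadenylate synthetase-like protein, was at 8.15, 5.38 and 2.43 FPKM in P, 1.75, 2.69 and 4.75 in C, 7.32, 2.26 and 15.4 in E, and 0.776, 0.856 and 0.907 in H. It rose in E (2.05 ± 0.53, adjusted p = 0.0278), with 1.66 ± 0.53 in P (adjusted p = 0.0554).

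The remaining antiviral effectors did not pass in any comparison with H in the fit of all 12 libraries with a pseudocount of 1. With a pseudocount of 0.1, Mx1 and Oasl1 passed in P and in E against H, and not in C against H. In that setting Mx1, Oasl1 and Oas1a passed for the mean of the ALS model groups, and Ifitm2, Cmpk2 and Rsad2 did not. Oas1a, a synthetase whose product activates an RNase, ranged from 0.679 to 8.03 FPKM over the ALS model libraries and from 0.338 to 0.637 FPKM in H. Mx1, a dynamin-like GTPase with activity against influenza viruses, ranged from 0.366 to 4.9 FPKM in the ALS model libraries and from 0.049 to 0.111 FPKM in H. Both had all ALS model libraries above all healthy ones. Oasl1 had the lowest mean level per kilobase of the 38 genes over the 12 libraries, at 0.511, 0.42 and 0.586 FPKM in P, 0.363, 0.333 and 0.666 in C, 0.521, 0.277 and 2.06 in E, and 0.0685, 0 and 0.155 in H. Ifitm2, a relative of Ifitm3, overlapped between P and H, with 0.180 FPKM in P74 and up to 0.583 FPKM in H.

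Cmpk2, a mitochondrial nucleotide kinase, and Rsad2 (viperin), which makes a chain-terminating nucleotide, lie next to each other on chromosome 12 and were the genes closest to healthy cord. Cmpk2 was at 8.76, 9.87 and 8.96 FPKM in P, 6.29, 7.95 and 7.59 in C, 9.62, 7.78 and 13.6 in E, and 9.55, 10.8 and 7.95 in H. The P libraries lay inside the healthy range, the C libraries at or below its lower end, and E90 above it. The log2 fold changes were -0.03 ± 0.16 in P, -0.33 ± 0.16 in C and 0.10 ± 0.16 in E, the last below 0 with median-ratio scaling. Rsad2 was at 2.22, 1.62 and 1.06 FPKM in P, 0.848, 0.801 and 1.9 in C, 1.59, 0.86 and 5.24 in E, and 1.35, 0.591 and 1.79 in H. The libraries of Rsad2 overlapped with healthy cord in all 3 groups, and E90 was again the highest.

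**Figure D4:**
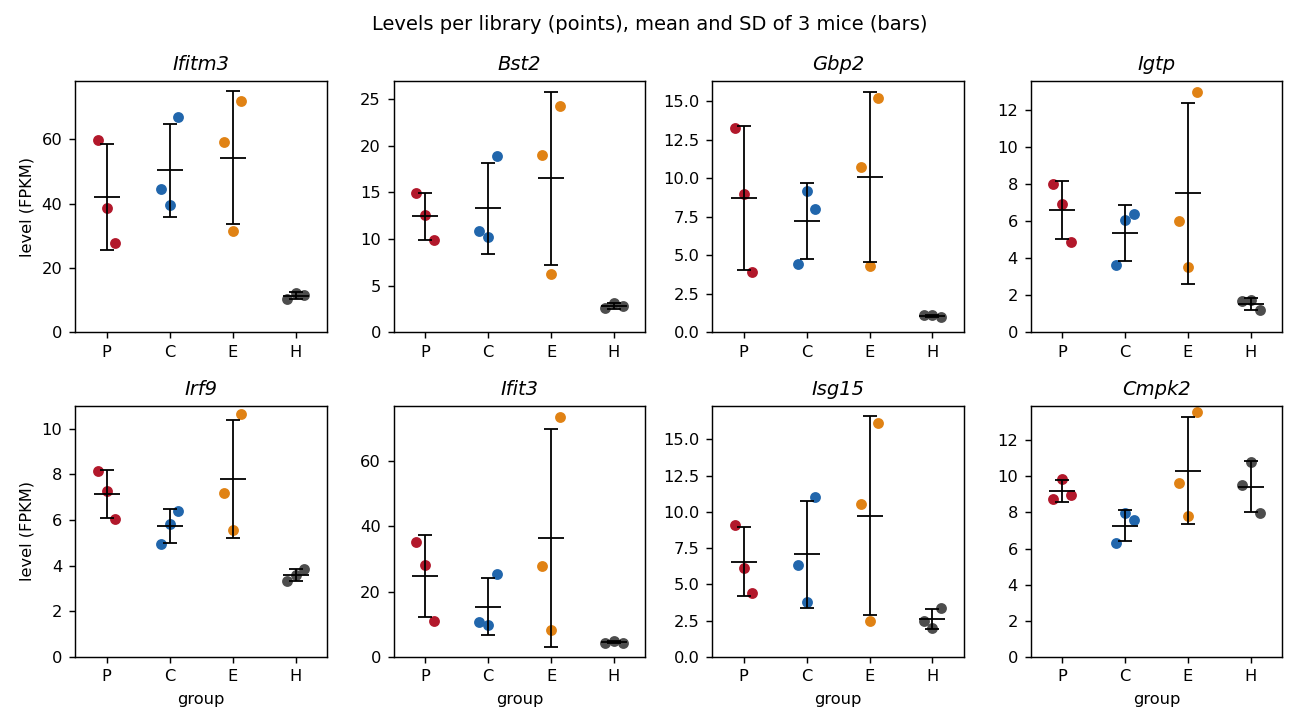
FPKM of 8 genes in each library (points), with the mean and SD of 3 mice (bars), for groups P, C, E and H from left to right. Ifitm3, Bst2, Gbp2, Igtp, Irf9 and Ifit3 have all 9 ALS model points above the 3 healthy points, Isg15 overlaps in E, and Cmpk2 overlaps in every group.

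Of the 4 transcription regulators, 2 rose in P, none in C and 1 in E. Irf9 (ENSMUSG00000002325, chr14:55603571-55610030, plus strand), the DNA-binding part of the complex with Stat2, was at 8.14, 7.29 and 6.04 FPKM in P, 4.96, 5.84 and 6.41 in C, 7.17, 5.55 and 10.6 in E, and 3.31, 3.59 and 3.84 in H. It rose by 0.83 ± 0.18 in P (adjusted p = 0.0119) and 0.90 ± 0.18 in E (adjusted p = 0.00762), with 0.55 ± 0.18 in C (adjusted p = 0.0787). Irf9 was among the steadier of the 38 genes, with 1.92 times as much in E90 as in E77. Stat2 was at 9.38, 7.69 and 7.35 FPKM in P, 5.82, 7.47 and 8.11 in C, 7.48, 6.4 and 12.4 in E, and 5.4, 4.57 and 5.49 in H. Its rise passed for the mean of the ALS model groups (0.53 ± 0.16, adjusted p = 0.0349) and for no single group. Sp100, a component of nuclear bodies, was at 2.57, 1.99 and 1.5 FPKM in P, 1.2, 1.54 and 1.86 in C, 1.77, 1.02 and 2.94 in E, and 0.867, 0.671 and 0.743 in H. It rose in P (0.77 ± 0.21, adjusted p = 0.0321), and in E its log2 fold change of 0.67 ± 0.21 had an adjusted p of 0.0546. Irf7, which amplifies transcription of type I interferon genes, did not pass with a pseudocount of 1, at 1.31 ± 0.51 in P and 1.62 ± 0.51 in E. Its lowest ALS model library (1.19 FPKM) was above its highest healthy library (0.934 FPKM). With a pseudocount of 0.1, Irf7 passed in E against H and for the mean of the ALS model groups, and not in P or C against H.

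Isg15 is a ubiquitin-like protein that is joined to other proteins on interferon signalling, and Usp18 removes it and also restrains the interferon receptor. Neither passed in any comparison with H in the fit of all 12 libraries, while Isg15 passed in P against H with only the groups compared. Isg15 was at 9.12, 6.1 and 4.43 FPKM in P, 6.34, 3.8 and 11.1 in C, 10.5, 2.5 and 16.2 in E, and 2.44, 2.02 and 3.37 in H. The E77 library lay inside the healthy range, while the other 8 ALS model libraries were above it. Usp18 had 5.55 FPKM in E90, but 0.618 FPKM in E77 and 0.611 FPKM in P74, both inside its healthy range of 0.342 to 0.663 FPKM. Their log2 fold changes in E against H were 1.31 ± 0.53 (adjusted p = 0.124) and 1.15 ± 0.44 (adjusted p = 0.107).

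The nucleic acid sensors bind foreign or misplaced RNA or DNA, and 3 of the 4 rose in P, none in C and 4 in E. Ddx58 (RIG-I), which senses RNA ends, was at 3.54, 3.07 and 1.94 FPKM in P, 1.45, 1.66 and 2.59 in C, 2.86, 2.06 and 6.41 in E, and 1.15, 0.959 and 0.952 in H. Ifih1 (MDA5), which senses long double-stranded RNA, was at 2.68, 1.79 and 1.03 FPKM in P, 0.88, 1.04 and 1.51 in C, 1.69, 1.11 and 3.09 in E, and 0.693, 0.528 and 0.531 in H. Dhx58 (LGP2), which tunes those sensors, was at 2.39, 1.39 and 1.24 FPKM in P, 1.24, 1.28 and 1.57 in C, 1.64, 1.29 and 3.06 in E, and 0.674, 0.433 and 0.477 in H. All ALS model libraries of these 3 genes lay above all healthy ones. Their log2 fold changes were 0.91 ± 0.28, 0.80 ± 0.24 and 0.79 ± 0.20 in P against H and 1.14 ± 0.28, 0.85 ± 0.24 and 0.93 ± 0.20 in E against H, all past the threshold. In C against H they were 0.50 ± 0.28, 0.43 ± 0.24 and 0.63 ± 0.20, none past it. Zbp1, a sensor of Z-form nucleic acids that can start cell death, was at 1.33, 0.817 and 0.283 FPKM in P, 0.0947, 0.584 and 0.656 in C, 0.82, 0.426 and 3.01 in E, and 0, 0 and 0.0328 in H. It rose in E (1.11 ± 0.33, adjusted p = 0.0458), and the value of 0 in H1 and H2 means that it was listed at 0 there.

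All 7 interferon-inducible GTPases rose in P and in E, and 2 of them rose in C. These proteins gather on the vacuoles of intracellular pathogens and on other membranes. Gbp2 (ENSMUSG00000028270, chr3:142620602-142638008, plus strand) was at 13.2, 8.98 and 3.93 FPKM in P, 4.43, 9.18 and 7.98 in C, 10.7, 4.27 and 15.2 in E, and 1.09, 1.08 and 0.966 in H. It rose by 2.12 ± 0.44 in P (adjusted p = 0.0109), 1.95 ± 0.44 in C (adjusted p = 0.0217) and 2.29 ± 0.44 in E (adjusted p = 0.00739). The healthy libraries of Gbp2 were close together, and every ALS model library was above them. Igtp (ENSMUSG00000078853, chr11:58199556-58207591, plus strand), an immunity-related GTPase also called Irgm3, was at 8, 6.93 and 4.89 FPKM in P, 3.64, 6.06 and 6.39 in C, 6.02, 3.52 and 13 in E, and 1.71, 1.73 and 1.17 in H. It rose by 1.57 ± 0.34 in P (adjusted p = 0.0118), 1.30 ± 0.34 in C (adjusted p = 0.0351) and 1.60 ± 0.34 in E (adjusted p = 0.0105).

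Irgm1, which regulates the other immunity-related GTPases, was at 6.8, 5.12 and 4 FPKM in P, 2.86, 3.47 and 4.13 in C, 4.89, 3.06 and 8.52 in E, and 1.55, 1.83 and 1.57 in H. It rose by 1.23 ± 0.26 in P (adjusted p = 0.0103) and 1.21 ± 0.26 in E (adjusted p = 0.0108), with 0.75 ± 0.26 in C (adjusted p = 0.0923). Iigp1, an effector of the same family, was at 4.18, 3.73 and 1.58 FPKM in P, 1.02, 1.51 and 2.7 in C, 2.89, 1.12 and 8.82 in E, and 0.401, 0.437 and 0.426 in H. It rose by 1.49 ± 0.46 in P (adjusted p = 0.0495) and 1.61 ± 0.46 in E (adjusted p = 0.0408). All libraries of the ALS model were above all healthy ones for both genes. Gbp3 was at 10.9, 6.87 and 3.69 FPKM in P, 3.31, 4.24 and 6.28 in C, 7.85, 2.93 and 16.2 in E, and 1.64, 1.14 and 1.4 in H. Gbp5, which promotes inflammasome assembly, was at 2, 1.65 and 0.868 FPKM in P, 0.772, 1.03 and 1.09 in C, 1.27, 0.755 and 1.79 in E, and 0.359, 0.362 and 0.296 in H. Gbp7 was at 2.98, 2.33 and 1.55 FPKM in P, 1.47, 1.59 and 1.67 in C, 2.24, 1.2 and 3.81 in E, and 0.934, 0.826 and 0.721 in H. In P against H the log2 fold change on the log2(FPKM + 1) scale was 1.67 ± 0.47 for Gbp3, 0.88 ± 0.18 for Gbp5 and 0.83 ± 0.23 for Gbp7. The size of these values depends on the level of each gene, and with a pseudocount of 0.1 they were 2.16, 1.80 and 1.33.

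Of the other 8 genes, 5 rose in P, 2 in C and 6 in E. Slfn2, a Schlafen protein that in mouse keeps T cells quiescent, was at 5.5, 4.78 and 2.01 FPKM in P, 3.35, 3.42 and 4.75 in C, 4.76, 3.18 and 9.31 in E, and 0.788, 0.983 and 1.25 in H. It rose by 1.28 ± 0.32 in P (adjusted p = 0.0237), 1.26 ± 0.32 in C (adjusted p = 0.0335) and 1.65 ± 0.32 in E (adjusted p = 0.00736). Ifi27l2a was at 9.39, 4.98 and 4.06 FPKM in P, 5.77, 5.27 and 15.3 in C, 9.82, 3.25 and 10.7 in E, and 0.772, 1.53 and 2.37 in H. It rose in C (1.84 ± 0.47, adjusted p = 0.0372) and E (1.72 ± 0.47, adjusted p = 0.0362), and in P its 1.46 ± 0.47 had an adjusted p of 0.0585. Ifi27l2a was the highest of all 12 libraries in C85 and rests on as few as 6 reads in a healthy library.

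Trim30a, a TRIM protein that restrains inflammatory signalling in mouse, was at 7.05, 4.84 and 2.85 FPKM in P, 2.3, 2.82 and 4.57 in C, 5.01, 2.84 and 9.55 in E, and 0.841, 0.929 and 1.22 in H. Parp14, which attaches ADP-ribose to proteins, was at 2.42, 2.24 and 1.29 FPKM in P, 0.892, 1.47 and 1.64 in C, 1.92, 1.51 and 4.53 in E, and 0.429, 0.41 and 0.385 in H. The log2 fold changes were 1.51 ± 0.34 and 1.06 ± 0.26 in P and 1.65 ± 0.34 and 1.29 ± 0.26 in E, all past the threshold, and 1.05 ± 0.34 and 0.72 ± 0.26 in C, neither past it. Xaf1, known for opposing an inhibitor of apoptosis, was at 5.66, 4.69 and 4.39 FPKM in P, 3.25, 2.96 and 4.57 in C, 3.98, 3.97 and 7.65 in E, and 2.29, 2.7 and 2.11 in H. Ifi35 was at 3.73, 2.9 and 1.53 FPKM in P, 1.97, 1.51 and 3.24 in C, 2.94, 2.13 and 2.59 in E, and 1, 1.17 and 1 in H. Xaf1 rose by 0.81 ± 0.20 in P (adjusted p = 0.0224) and 0.83 ± 0.20 in E (adjusted p = 0.0203), and Ifi35 by 0.81 ± 0.22 in P (adjusted p = 0.0331) and 0.78 ± 0.22 in E (adjusted p = 0.0405). Neither passed in C, and all of their ALS model libraries lay above the healthy ones. Rtp4, a chaperone of receptors, and Ifi44 passed in no comparison in the fit of all 12 libraries with a pseudocount of 1. Their log2 fold changes were 0.93 ± 0.41 and 0.77 ± 0.34 in P and 1.19 ± 0.41 and 0.94 ± 0.34 in E. Among the alternative settings, Rtp4 passed in P against H with only the groups compared. Ifi44 passed in E against H with a pseudocount of 0.1.

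On the log2(FPKM + 1) scale, the listed genes varied far more between mice of an ALS model group than between healthy mice. This scale compresses differences at low levels, and most listed genes were lower in H than in the ALS model groups. The median within-group SD of log2(FPKM + 1) over the 38 genes was 0.445 in P, 0.385 in C, 0.695 in E and 0.109 in H. Over all tested genes the median SD was 0.124 in P, 0.111 in C, 0.121 in E and 0.132 in H. Since the fit pooled the spread over all groups, the wide spread in E entered the p-values of P and C against H. With only the groups compared, 29 of the 38 genes rose in P against H, where 6.78% of all tested genes rose. In such fits 21 of the 38 genes rose in C (7.68% of all tested genes) and 13 in E (8.05%). The genes moved together from mouse to mouse: E90 was the highest library of its group for 37 of 38 genes, as for 30.6% of all tested genes, and E77 the lowest for 37, as for 36.6%. P66 was the highest of P for 36 genes and P74 the lowest for 36, where the shares over all tested genes were 39.7 and 40.5%. C85 was the highest of C for 36 genes, against 28.8% of all tested genes. In H no library led: H1, H2 and H4 were highest for 9, 13 and 16 genes. E90 was the highest of all 12 libraries for 34 of 38 genes, as for 8.29% of all tested genes. The ratio of E90 to E77 was 13.4 for Mx1, 11.8 for Oas1a, 7.85 for Iigp1 and 6.45 for Isg15, but 2.28 for Ifitm3.

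As a mean of log2(FPKM + 1) over the 38 genes, the level was 2.69, 2.35 and 1.83 in P, 1.77, 1.91 and 2.40 in C, 2.43, 1.74 and 3.21 in E, and 1.18, 1.21 and 1.23 in H. The groups P, C and E overlapped on this mean, and all 9 of their libraries were above the 3 healthy ones. Marker genes of other cells also differed between these libraries. The counts of markers below stand beside the shares over all tested genes, of which 12.2% rose in P, 7.25% in C and 11.1% in E. Of 15 microglia markers, 14 rose in P, 12 in C and 11 in E against H. Their summed level ran from 583 to 1244 FPKM in P, 746 to 962 in C, 543 to 877 in E and 174 to 229 in H, and none was at 0 throughout a group. The microglia mean was highest in P66 (5.55) and lower in E90 (4.93). Within P the microglia mean was lowest in P74 (4.59), within C in C79 (4.92) and within E in E77 (4.48), as was the mean of the listed genes. The highest library of both means was the same in P (P66). It differed in C, where C84 had the highest microglia mean (5.18), and in E, where E75 had it (5.03).

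The library with the highest mean of the listed genes, E90, also had the highest mean for markers of T and NK cells, blood monocytes and border macrophages, meningeal fibroblasts, Schwann cells and endothelium and for caudal Hox genes. Its mean over T and NK cell markers was 1.15, against 0.314 to 0.862 in the other 11 libraries. For endothelium E90 and C79 were nearly equal, at 3.4841 and 3.4836. For caudal Hox genes E90 had 3.00 and E77, the lowest ALS model library for the mean of the listed genes, had 2.92. Of 13 T and NK cell markers, 4 were tested, of which 2 rose in P, none in C and 2 in E. Their summed level ran from 4.87 to 6.29 FPKM in P, 3.17 to 4.82 in C, 4 to 8.45 in E and 1.51 to 2.70 in H, and Gzmb, Prf1 and Ncr1 were listed at 0 in all H libraries. Of 9 markers of blood monocytes and border macrophages, 1 rose in P, none in C and 4 in E. The shares in P and in C were below those of all tested genes, 12.2% in P and 7.25% in C. These 9 markers summed to 3.72 to 7.26 FPKM in P and 5.18 to 7.56 in C. In E they summed to 6.19 to 14.1 FPKM, and in H to 2.21 to 5.13. Of 9 meningeal fibroblast markers, 2 rose in P, 4 in C and 7 in E, with summed levels of 52.7 to 140.4 FPKM in P, 60.8 to 140.5 in C, 145 to 294 in E and 15.7 to 34.1 in H. Of 8 Schwann cell markers, 7 were tested, of which 2 rose in P, 1 in C and 6 in E, with summed levels of 152 to 229 FPKM in P, 69.3 to 180.0 in C, 365 to 844 in E and 38.8 to 115.0 in H. In summed level of both of these lists the E libraries lay above all P, C and H libraries. Pmp2 of that list was listed at 0 in all P, C and H libraries. The part of these cells in the levels of the listed genes was not tested.

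**Figure D5:**
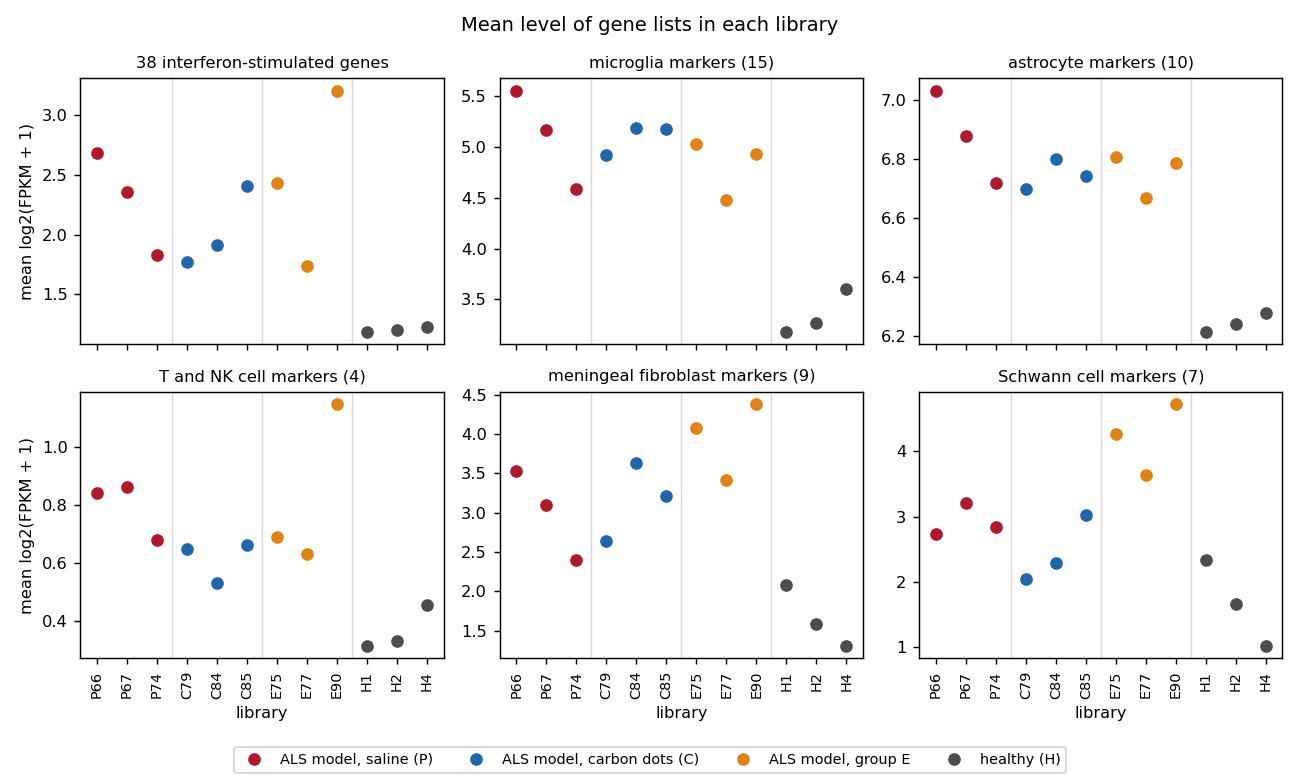
Mean log2(FPKM + 1) (vertical axis) of the 38 listed genes and of 5 marker lists in each of the 12 libraries (horizontal axis; P, C, E and H from left to right). E90 has the highest mean for the listed genes (3.21), T and NK cell, meningeal fibroblast and Schwann cell markers, while P66 has the highest microglia mean (5.55).

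Of 10 astrocyte markers, 6 rose in P, 4 in C and 5 in E, and 1 fell in E. Their summed level was 2589 to 3820 FPKM in P, 2899 to 3286 in C, 2373 to 2981 in E and 1757 to 1994 in H. Of 14 neuron markers, 7 fell in P, 3 in C and 5 in E. Over all tested genes, 3.26% fell in P, 1.06% in C and 2.15% in E. Of 10 endothelium markers none passed against H. Of 6 markers of plasmacytoid dendritic cells, major sources of type I interferon, 2 were tested and none passed, and Cd300c was listed at 0 in all E and all H libraries. The mean of log2(FPKM + 1) over those 2 was highest in H1 (5.77), as was that of the skeletal muscle markers (7.76). Whether those 2 genes report such cells in this tissue was not tested. No marker of B cells or neutrophils passed. Skeletal muscle markers summed to 46 to 228.9 FPKM in P, 59.1 to 82.8 in C, 48.9 to 81.3 in E and 117 to 2275 in H, with H1 the highest. Hox genes of the caudal cord summed to 23.7 to 81.4 FPKM in P, 10 to 44 in C, 62 to 94.1 in E and 3.41 to 39.9 in H, with Hoxc13 listed at 0 in all H libraries and Hoxc12 in all C libraries. Erythroid markers summed to 128 to 307 FPKM in P, 206 to 389 in C, 108 to 267 in E and 402 to 2578 in H. Of 8 oligodendrocyte markers, 1 rose and 1 fell in P, 1 rose in C and 3 fell in E. The part of these markers in the results was not tested.

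The carbon dot group was compared with saline to ask whether treatment was followed by different levels of these genes. None of the 38 genes passed in C against P, where 0.00552% of all tested genes passed. An unadjusted p under 0.05 was reached by 0 of the 38 genes and by 1802 of the 18118 tested genes. The log2 fold change was below 0 for 33 of 38 genes, with a median of -0.30, against -0.02 over all tested genes. Since the genes move together between mice, that count is not 38 separate observations. The sign of 11 genes changed in at least 1 alternative setting, and the median was -0.13 without P66 and -0.18 without C79. Ifit1 had a log2 fold change of -0.67 ± 0.57 (95% interval -1.93 to 0.60) and Ifit3 one of -0.64 ± 0.68 (-2.16 to 0.88), so that both no difference and a fall of more than 1 on the log2 scale lie inside. Ifitm3 was at 0.29 ± 0.31 (-0.40 to 0.97), and Ifi27l2a had the highest value, 0.38 ± 0.47 (-0.66 to 1.42). Cmpk2 was the single gene whose C libraries (6.29, 7.95 and 7.59 FPKM) all lay below the P libraries (8.76, 9.87 and 8.96 FPKM), as in 8.77% of all tested genes, with an adjusted p of 0.571.

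In E against P, none of the 38 genes passed, and none of all tested genes did (0%). At an unadjusted p under 0.05 there were 0 of the 38 genes and 889 of all tested genes. Log2 fold changes ran from -0.14 ± 0.18 for Gbp5 (95% interval -0.54 to 0.26) to 0.39 ± 0.53 for Oasl2 (-0.77 to 1.55), with a median of 0.18, against 0.01 over all tested genes. The sign of 36 of the 38 genes changed in at least 1 alternative setting: the median was -0.19 without E90, when 35 genes were below 0, -0.04 without P74, and 0.56 without E77, when none was below 0. Ifitm3 was at 0.35 ± 0.31 (-0.34 to 1.04). In C against E, none of the 38 passed, where 0.171% of all tested genes did. An unadjusted p under 0.05 was reached by 3 of the 38 genes, Cmpk2, Ddx58 and Parp14, and by 1991 of the 18118 tested genes. The median was -0.42, against -0.02 over all tested genes, and -0.08 without E90 and -0.76 without E77. The sign of 13 genes changed in at least 1 alternative setting. Oasl2 had the most negative value, -0.98 ± 0.53 (-2.14 to 0.18, adjusted p = 0.528), and Ifi27l2a alone was above 0, at 0.12 ± 0.47 (-0.91 to 1.16). At an adjusted p under 0.05 the count of listed genes was 0 in every alternative setting for all 3 comparisons between ALS model groups.

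The interferon genes themselves were at or near 0 in every library. Of 21 ligands looked for, 9 were matched, and none passed the filter. Ifne was listed at 0 in all 12 libraries. The other 8 were listed at 0 in most libraries, and no value exceeded 0.279 FPKM, that of Ifnab in E75. Ifnb1, the interferon beta gene, had 0.223 FPKM in C79 and 0.0794 FPKM in E90 and was listed at 0 in the other 10 libraries. Ifng, the interferon gamma gene, had up to 0.182 FPKM, in E75. At a depth where 1 read in a transcript of 1 kb is worth 0.0542 to 0.0643 FPKM, differences in these ligands were not detectable.

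Receptors and signal transducers of the pathway were higher in part. Of 11 such genes, 7 rose in P, 6 in C and 6 in E against H, and none fell. Over all tested genes, 12.2% rose in P, 7.25% in C and 11.1% in E, shares that also stand beside the pathway counts below. Il10rb, a chain of the type III interferon and interleukin 10 receptors, averaged 3.35 ± 0.976 FPKM in P, 2.76 ± 0.293 in C, 3.16 ± 0.662 in E and 1.04 ± 0.0939 in H (SD, n = 3 each). Ifngr1, a chain of the interferon gamma receptor, averaged 17 ± 4 FPKM in P, 15.9 ± 2.07 in C, 15.6 ± 1.95 in E and 8.37 ± 0.952 in H. Ifnar2 averaged 4.78 ± 0.622 FPKM in P, 4.97 ± 0.169 in C, 4.81 ± 1.1 in E and 2.49 ± 0.504 in H. These 3 genes and Stat3 rose in all 3 groups. Of 10 interferon regulatory factor genes outside the 38, 3 rose in P, 4 in C and 3 in E. Irf8, which microglia need for their development, averaged 6.08 ± 2.44 FPKM in P, 5.91 ± 0.793 in C, 4.76 ± 1.3 in E and 0.843 ± 0.0402 in H. Irf5 and Irf1 rose in all 3 groups, and Irf3 rose in C.

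Upstream of the interferons, 12 of 18 sensors and adaptors rose in P, 8 in C and 10 in E, and none fell. Unc93b1, which carries endosomal Toll-like receptors to their compartment, averaged 20.2 ± 5.74 FPKM in P, 16.6 ± 3.23 in C, 16.4 ± 4.03 in E and 4.88 ± 0.96 in H. Tlr7, a receptor for single-stranded RNA, averaged 5.25 ± 2.14 FPKM in P, 4.1 ± 0.223 in C, 5.04 ± 1.8 in E and 1.01 ± 0.441 in H. Tmem173 (STING), the adaptor of cytosolic DNA sensing, and Ifi204 also rose in all 3 groups. Of 16 genes that restrain interferon signalling or clear nucleic acids, 6 rose in P, 4 in C and 7 in E. None of these fell in a single group. For the mean of the ALS model groups 1 of them was lower than H, where 4.19% of all tested genes were lower. Socs3, an inhibitor of cytokine receptor signalling, averaged 4.27 ± 1.88 FPKM in P, 4.56 ± 0.693 in C, 5.06 ± 1.89 in E and 0.55 ± 0.135 in H, and Ptpn6, a phosphatase of blood and immune cells, 8.35 ± 2.81 FPKM in P, 7.29 ± 1.46 in C, 6.08 ± 1.18 in E and 1.36 ± 0.4 in H. Dnase2a and Ptpn2 rose in all 3 groups. None of the genes in these lists passed in C against P, E against P or C against E.

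Of 77 further interferon-stimulated genes, 73 were tested, of which 31 rose in P, 13 in C and 38 in E, and none fell. Over all tested genes, 12.2% rose in P, 7.25% in C and 11.1% in E. The median log2 fold change of the 73 genes was 0.65 in P, 0.48 in C and 0.72 in E. The medians over all tested genes were 0.07, 0.07 and 0.08 in the same order. B2m, the light chain of MHC class I, averaged 404 ± 163 FPKM in P, 387 ± 98.5 in C, 388 ± 122 in E and 98.5 ± 17 in H. Lgals3bp, a secreted glycoprotein that binds galectins, averaged 49.8 ± 21.4 FPKM in P, 35.1 ± 9.34 in C, 47.5 ± 23.5 in E and 7.02 ± 0.413 in H. Lgals9 and Fcgr1, an Fc receptor of myeloid cells, also rose in all 3 groups. This list and that of the signal transducers share 1 gene.

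Genes of the 38 with an ISRE core in the window shown above had a median log2 fold change of 1.14 for the mean of the ALS model groups against H (19 genes, 15 of which rose). The 11 genes with a window and without a core had 0.74, and 7 of them rose. The difference was not tested, and Rsad2 and Isg15 show that a core also stood at genes that did not pass. The split of reads among close relatives is uncertain for Ifit3 and Ifit3b, Oas1a and Oas1g, the guanylate-binding protein genes, Trim30a and Trim30d, and Ifitm2 and Ifitm3. Ifit3b ranged from 4.12 to 29.8 FPKM over the ALS model libraries and from 2.02 to 2.81 FPKM in H, and like Ifit3 it was highest in E90. Exons also overlap other genes on the same strand over 40.9% of the exon length of Ifitm2, 13.9% of Rtp4, 11.3% of Gbp7 and 8.01% of Igtp, and on the opposite strand over 16.8% of Ifi35, and the sources used here do not give the strand setting of the counting.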

How the data were processed

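RNA sequencing covered the lumbar spinal cord of 12 mice, 3 in each of groups P, C, E and H, with total RNA taken up in TRIzol and its poly(A) fraction captured on oligo(dT), per the labels' protocols. The build GRCm38 and the tools cutadapt, featureCounts and HISAT2 are named, per the submitters' processing notes, with neither a version nor a strand setting in the sources used here. The authors deposited FPKM values per gene, a unit settled from the values: multiplied by GENCODE M21 exon lengths, 95.2 to 95.7% of low values lay within 0.02 of whole reads, which summed to 16.8 to 19.8 M per library. These sums were 6.63 to 8.04% above the totals of 15.5 to 18.4 M by which the values had been scaled, for a reason that was not tested; limma-voom used the scaling totals as library sizes. Genes with at least 10 reads in at least 3 libraries and 15 in all were tested.

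Log2(FPKM + 1) of 18118 genes was fitted with limma 3.58.1 in R 4.3.3, with 1 mean per group, trended and robust variance moderation and 8 residual degrees of freedom. The p-values are two-sided and adjusted by Benjamini-Hochberg within a comparison. Folds on this scale understate changes of low genes. The procedure was checked on simulated data. A permutation test of 3 against 3 cannot go below 0.1. The 38 genes, the pathway lists and the marker lists were chosen with earlier results of these data known. All 38 genes could be named, with values in every library for those past the threshold in any comparison and for those of highest and lowest mean level. Up to 4 genes per pathway list were named, by smallest p for the mean of P, C and E against H; Ifnb1, Ifng, Ifnab, Ifne and Ifit3b were named after their values were seen. Alternatives were another filter, no filter, another pseudocount, median-ratio scaling, limma-voom, fits of only the compared groups, and each library left out.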

Additional observations from a re-analysis of the deposited data

How the results depend on the processing

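The counts of listed genes that passed against H changed with the settings. Over fits that left out 1 library each, they ran from 1 to 25 in P against H (20 with all libraries), 1 to 5 in C against H (6), 10 to 34 in E against H (23) and 13 to 35 for the mean of P, C and E (26). Between ALS model groups the count stayed 0 in all settings. With no filter on low values 8, 2, 10 and 16 listed genes passed in P, C, E and their mean against H. For C against H the count was 3 with limma-voom on recovered reads, 21 with only the groups compared and 10 with a pseudocount of 0.1, and for E against H it was 13 with only the groups compared.

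Over all genes, fits without 1 library called 933 to 3535 genes in P against H (2807 with all libraries), 567 to 1915 in C against H (1505), 1159 to 2230 in E against H (2393), 1555 to 4302 for the mean (3733), 0 to 2 in C against P (1), 0 to 2 in E against P (0) and 0 to 56 in C against E (31). With no filter they were 1444, 736, 1469, 2468, 5, 3 and 4 in the same order. With only the groups compared there were 1471 genes in P against H and 4 in C against E. The FPKM filter gave 4 in C against P and 1 in E against P, median-ratio scaling 2 in C against P, limma-voom 0 in C against P, and a pseudocount of 0.1 gave 0 in C against P and 17 in C against E.

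Signs changed only for log2 fold changes that did not pass: in at least 1 setting for 36 of the 38 genes in E against P, 13 in C against E, 11 in C against P and 1 in each comparison with H. In E against P, 30 genes changed sign without E90 and 18 without P74; in C against E, 11 did without E90. Over fits without 1 library, Cmpk2 ran from -0.13 to 0.068 (-0.025 with all libraries) in P against H, from -0.10 to 0.26 (0.095 with all libraries) in E against H and from -0.19 to 0.0065 (-0.087 with all libraries) for the mean, and it was -0.018 in E against H with median-ratio scaling. Rsad2 in C against H ran from -0.26 to 0.14 (-0.037 with all libraries). Ifi27l2a ran from -0.061 to 0.68 (0.38 with all libraries) in C against P and from -0.35 to 0.38 (0.12 with all libraries) in C against E. In E against P, Oasl2 ran from -0.17 to 1.0 (0.39 with all libraries) and Gbp5 from -0.34 to 0.034 (-0.14 with all libraries). The causes were not tested.

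No paired analysis was possible because the mouse numbers of the labels are not shared between groups. With 3 mice per group and E77 and E90 far apart, intervals of differences between ALS model groups are wide. Levels near 1 read, as those of the interferon ligands, cannot be compared at this depth.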
